A study of Homo sapiens with 18 samples.

Results

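Host genes of small nucleolar RNAs (snoRNAs) were examined in RNA-seq libraries of SH-SY5Y, an established human neuroblastoma line that can be turned into neuron-like cells. The genes were chosen by name: every symbol made of SNHG and a number, GAS5, ZFAS1 and EPB41L4A-AS1 as hosts that code for no protein, and TAF1D, NCL, EEF1B2, EEF2, EIF4A1, EIF4A2, EIF4G2, IPO7, PTCD3 and WDR43 as hosts that do. The rule found 34 of the 26372 genes of the table, 24 noncoding and 10 coding. Of these, 30 had a mean of at least 1 FPKM (fragments per kilobase of transcript, scaled to the number of mapped fragments of the library) over all libraries and were tested, which left 20 of the 24 noncoding hosts and all 10 coding hosts. SNHG25 was listed at 0 in all 18 libraries, and SNHG18, SNHG22 and SNHG24 lay under the filter, with their highest single values at 0.476, 0.148 and 0.441 FPKM.

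Most human snoRNAs are not made from promoters of their own. They lie in introns of a host gene, are released when the host transcript is spliced and trimmed, and then guide ribose methylation (box C/D snoRNAs) or pseudouridylation (box H/ACA snoRNAs) of ribosomal RNA, while the related small Cajal body RNAs (scaRNAs) serve spliceosomal RNAs. In the coding hosts the exons make a protein, often one of ribosome production or translation, whereas the spliced exons of many noncoding hosts are degraded by nonsense-mediated decay when they are translated. Many hosts of both kinds start transcription in a stretch of C and T, the terminal oligopyrimidine motif shared with ribosomal protein genes, which ties translation of the RNA to growth signals.

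The 6 groups of 3 libraries combined 3 lentiviral ZNHIT3 constructs with 2 time points. ZNHIT3 is an assembly factor of box C/D snoRNA-protein particles. The constructs, made in the plasmid FUGW, carried wild-type ZNHIT3 (WT), ZNHIT3 with the C14R change, or ZNHIT3 with a deletion, and cells were taken at day 0 or at day 18 of differentiation in serum-free neurobasal/B27 plus medium with BDNF, KCl, dibutyryl cyclic AMP and all-trans retinoic acid. All groups share the parent line and the infection, a library without a construct was not used here, and the labels do not say whether the libraries of a group came from separate cultures, so the p-values measure the spread between these libraries, which may be technical. The treatment labels give the deletion as positions 251 to 254 in replicate 1, 251 to 255 in replicate 2 and 251 to 256 in replicate 3 of both days, and the series design gives 251 to 254. Whether these were the same construct cannot be told from the labels.

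ZNHIT3 RNA, the sum of the cells' own and the delivered transcript, separated the constructs in every library. In WT it was 542, 541 and 531 FPKM at day 0, then 1193, 1164 and 1103 at day 18. In C14R it was 419, 432 and 421 FPKM and then 599.7, 756 and 604, and in the deletion line 306, 310.1 and 292 and then 298, 313 and 294. The WT libraries were the highest and the deletion libraries the lowest at both days. How much of it was delivered RNA cannot be told from these values. The exact permutation test of 3 against 3 gave 0.1, the smallest p it can give, for each pair of constructs at each day.

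The libraries differed in what surrounded the host genes. Summed FPKM ran from 987586 to 2222220 at day 0 and from 553539 to 989589 at day 18, and SNORD3A alone, a snoRNA with its own promoter, made up 6.87 to 58.6% of that sum at day 0 and 1.01 to 15.1% at day 18, while the median FPKM of the tested genes stayed between 10.2 and 10.6. The deposited FPKM has no counts beside it. Relative depth read from the steps of low values was 58.6 to 84.7% of that of the deepest library at day 0 and 81.8 to 100% at day 18. The C14R library of day 18 labelled replicate 1 stood apart on the second principal component, at 24.8 against -8.27 to 9.27 for the other libraries. Of its 30 tested host genes, 8 lay above and 9 below all other day 18 libraries, and 6 of the 8 were coding and 8 of the 9 noncoding. Where the text gives a C14R log2 change of a host at day 18, the value without this library stands with it. Markers of the sympathetic lineage moved in both directions. HAND2 ranged over 273 to 288 FPKM at day 0 and 263 to 307 at day 18, ISL1 over 55.3 to 60.6 and 59.4 to 71.3, PHOX2A over 90.1 to 101 and 109 to 164, and DBH, the enzyme that makes noradrenaline, over 56.2 to 69.2 and 288 to 476. GATA2 was lower at day 18, at 21.9 to 28.3 against 95.9 to 105 FPKM, and so was GATA3, at 68.2 to 94.0 against 94.3 to 103, while TH, the first enzyme of catecholamine synthesis, stayed at or under 1.02 FPKM in every library. The summed FPKM of 13 proliferation genes was 553 to 592 and then 190 to 246, and that of 8 genes of the substrate-adherent cell form, led by VIM, 674 to 837 and then 62.3 to 69.1. The 6 glial markers together reached at most 3.47 FPKM, with OLIG2 listed at 0 at day 0. These shifts moved with the day in every line, and their part in the changes of the host genes was not tested. In bulk RNA, fewer cells that carry a transcript and less of it per cell cannot be told apart.

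**Figure D1:**
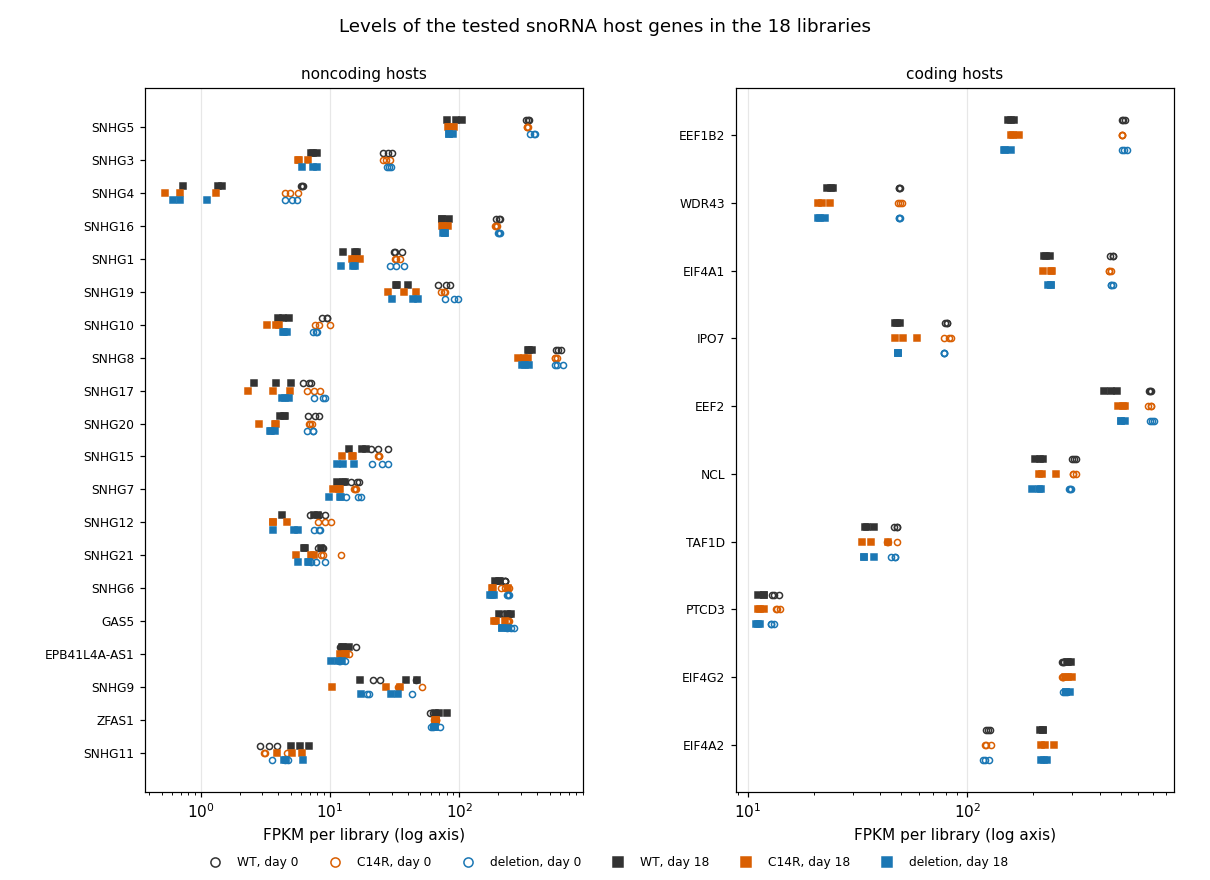
FPKM of the 30 tested host genes in each of the 18 libraries on a log axis, noncoding hosts on the left and coding hosts on the right, with open circles for day 0 and filled squares for day 18 and a colour for each construct. For SNHG5, SNHG16, EEF1B2, WDR43 and EIF4A1 all squares lie left of all circles, for EIF4A2 all lie right of them, and for GAS5 and ZFAS1 they overlap.

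The host genes spanned a wide range of levels, and a few of them carried most of the signal of each class. FPKM is scaled by transcript length, so levels can be set side by side between genes as far as reads were given to the right gene. Some hosted snoRNAs listed at 0, such as SNORA24 in SNHG8 and SNORD50A in SNHG5, lie inside annotated exons of their host. Whether their reads were counted in the host cannot be told from the deposited values. At day 0 in WT the noncoding hosts led with SNHG8 at 584 ± 25.5 FPKM (SD, n = 3), followed by SNHG5 at 339 ± 8.17, GAS5 at 234 ± 12.8, SNHG6 at 226 ± 1.08 and SNHG16 at 199 ± 6.95. These 5 made up 82.6% of the summed FPKM of the noncoding hosts, and the 5 highest coding hosts made up 87.8% of that of the coding hosts. GAS5 and SNHG6 did not differ beyond the spread of GAS5, whose lowest library at 220.1 lay below the lowest of SNHG6 at 225. Among the coding hosts EEF2, the elongation factor that moves the ribosome along the mRNA, was highest at 679.5 ± 8.98 FPKM, ahead of EEF1B2, which recharges elongation factor 1A, at 512 ± 8.14, and EIF4A1, the helicase of translation initiation, at 456 ± 8.26.

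Differentiation changed that order. At day 18 in WT, SNHG8 was still the highest noncoding host at 349.7 ± 16.2 FPKM, followed by GAS5 at 228 ± 23.7 and SNHG6 at 199 ± 10.1, and SNHG5 came after these at 92.9 ± 12.1. SNHG5, once 17.7% of the summed FPKM of the noncoding hosts, made up 7.82%. EEF2 stayed the highest coding host at 449.9 ± 28.7 FPKM. EIF4G2, a scaffold of translation initiation, moved from rank 5 to rank 2 at 289 ± 6.98, and EEF1B2 from rank 2 to rank 6 at 158 ± 4.66. The summed FPKM of all noncoding hosts was 1916 ± 48.4 at day 0 and 1187 ± 63.0 at day 18 in WT, and that of the coding hosts 2540 ± 17.7 and 1678 ± 19.6.

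From day 0 to day 18 most host genes of both kinds fell, in every line. Of the 20 tested noncoding hosts in WT, 12 were lower, 2 higher and 6 not past the threshold (limma on log2(FPKM + 1), Benjamini-Hochberg adjusted p under 0.05 over 13785 genes). Of the 10 coding hosts 8 were lower and 2 higher. Of all tested genes 72.2% passed the threshold in WT, with 38.2% of all tested genes higher and 34% lower, so that passing it was common, and lower calls, at 20 of 30 hosts, are to be read against the 34%. The median log2 change was -0.58 for noncoding and -0.56 for coding hosts, against 0.03 for all tested genes. In C14R, where 72.9% of genes were past the threshold, 37.9% higher and 35% lower, 16 noncoding hosts were lower and 1 higher, with a median of -0.84, and 8 coding hosts were lower and 2 higher, with a median of -0.43. In the deletion line, with 73% of genes past the threshold, 38.6% higher and 34.4% lower, 14 noncoding hosts were lower and none (0) higher, with a median of -0.72, and 8 coding hosts were lower and 1 higher, with a median of -0.47.

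The 3 lines moved together. Of the 30 hosts, 20 were lower in all 3 lines, 12 of them noncoding and 8 coding, where 29.7% of all tested genes were lower in all 3. EIF4A2 was the 1 host higher in all 3, where 33.3% of all tested genes were, 2 hosts, EPB41L4A-AS1 and SNHG9, passed the threshold in none, 7 passed it in some lines, and 0 passed it in opposite directions. Without the C14R library that stood apart, 29 of 30 hosts kept their call in C14R. EIF4G2 was the exception, with a log2 change of 0.08 (adjusted p = 0.038, limma) with all libraries and 0.06 (adjusted p = 0.12, limma) without it. The C14R medians without that library were -0.72 for noncoding and -0.45 for coding hosts, with 16 noncoding hosts lower and 1 higher and 8 coding hosts lower and 1 higher, where 71.9% of all tested genes passed the threshold. Scaling the libraries to a common sum without their small RNAs raised the median of all genes in WT from 0.03 to 0.21 on the log2 scale and made 68.7% of the genes past the threshold higher ones, where 52.9% had been. Relative to that median the noncoding hosts stood at -0.61 before and -0.60 after, and the coding hosts at -0.58 and -0.56. A common factor per library moves all genes nearly alike, so this scaling could hardly change these distances. With quantile normalization they were smaller in WT, at -0.42 for the noncoding and -0.36 for the coding hosts.

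**Figure D2:**
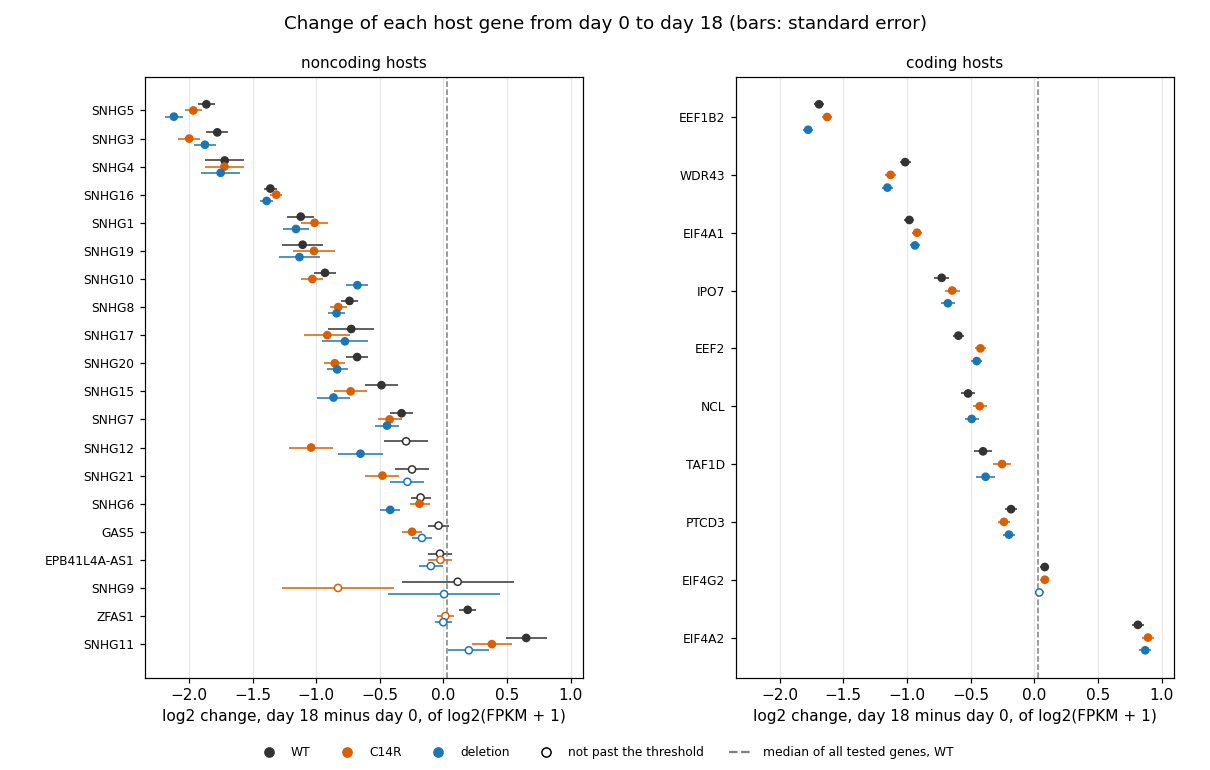
Change of each tested host gene from day 0 to day 18 on the log2(FPKM + 1) scale with its standard error, in WT, C14R and the deletion line, noncoding hosts on the left and coding hosts on the right. Filled points passed an adjusted p of 0.05, open points did not, and the dashed line marks the median of all tested genes in WT at 0.03. In WT the range runs from -1.86 for SNHG5 to 0.81 for EIF4A2.

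SNHG5, which hosts 2 box C/D snoRNAs and lies at chr6:85660950-85678748 (GENCODE 29, GRCh38, minus strand), had the largest fall in WT on the log2(FPKM + 1) scale. Its 3 WT libraries read 347, 338 and 331 FPKM at day 0, then 104, 80.3 and 94.0 at day 18. C14R read 338, 334 and 334 and then 82.9, 91.2 and 81.6, and the deletion line 386, 378 and 355 and then 83.0, 89.2 and 83.2. The days did not overlap in any line, and day 18 held 27.4% of the day 0 mean in WT, 25.4% in C14R and 22.8% in the deletion line. Days that did not overlap were common among the 13785 tested genes. In WT 5479 of them were apart and higher at day 18 and 4957 apart and lower. The counts were 5135 and 4761 in C14R and 5637 and 5071 in the deletion line. Among the 30 hosts they were 3 and 21 in WT, 2 and 22 in C14R, and 1 and 23 in the deletion line. The log2 change was -1.86 ± 0.07 (SE, adjusted p = 1.5e-13, limma) in WT, -1.97 in C14R (-1.95 without the library that stood apart) and -2.12 in the deletion line.

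SNHG3 and SNHG4 followed, both hosts of long box H/ACA snoRNAs. SNHG3 (chr1:28505980-28510892, plus strand) read 30.4, 25.7 and 28.2 FPKM at day 0, then 7.43, 7.12 and 7.90 at day 18 in WT. SNHG3 read 25.5, 29.3 and 27.1 and then 5.68, 6.81 and 5.80 FPKM in C14R, and 27.7, 28.6 and 29.9 and then 7.99, 7.37 and 6.08 in the deletion line, again apart. The log2 change of SNHG3 was -1.78 ± 0.09 in WT (adjusted p = 4.7e-12, limma), -1.997 in C14R (-1.96 without the library that stood apart) and -1.87 in the deletion line. SNHG4 (chr5:139274102-139284899, plus strand) was low from the start, at 5.92, 6.23 and 6.11 FPKM at day 0, then 1.45, 1.36 and 0.728 at day 18 in WT, with a log2 change of -1.72 ± 0.15 (adjusted p = 2.2e-08, limma). C14R libraries of SNHG4 read 4.93, 4.47 and 5.65 and then 0.531, 0.691 and 1.32 FPKM, and deletion libraries 5.54, 4.51 and 5.09 and then 0.607, 1.13 and 0.688. A pseudocount of 1 understates changes of low genes: the ratio of the day 0 to the day 18 mean in WT was 5.16 for SNHG4 and 3.76 for SNHG3, both above the 3.65 of SNHG5. SNHG3 shares its strand and interval with RCC1, and SNHG4 with MATR3, so reads of these pairs could have been divided in ways the deposited values do not show.

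Among the other abundant noncoding hosts, SNHG16 and SNHG8 fell by different amounts. SNHG16 (chr17:76557766-76565348), with 3 box C/D snoRNAs, read 205, 192 and 201 FPKM at day 0, then 83.5, 74.1 and 73.9 at day 18 in WT, a log2 change of -1.36 ± 0.05 (adjusted p = 9.1e-14, limma). It read 195, 192 and 191 and then 73.7, 75.2 and 82.0 FPKM in C14R and 207, 202 and 198 and then 74.5, 78.0 and 77.8 in the deletion line, with log2 changes of -1.31 (-1.28 without the library that stood apart) and -1.39. SNHG8 (chr4:118278709-118279823) hosts 1 box H/ACA snoRNA. It went from 575, 564 and 613 FPKM to 368, 338 and 343 in WT, a log2 change of -0.74 ± 0.07 (adjusted p = 1.8e-08, limma), with -0.83 in C14R (-0.88 without the library that stood apart) and -0.84 in the deletion line. SNHG8 read 569, 547 and 552 and then 339, 317 and 286 FPKM in C14R and 547, 569 and 633 and then 322, 306 and 347 in the deletion line, so that its days were apart in every line. SNHG19 (chr16:2154797-2155358) read 84.4, 68.2 and 78.5 FPKM and then 40.1, 32.6 and 33.1 in WT, 76.0, 72.4 and 76.9 and then 28.3, 37.4 and 46.1 in C14R, and 90.5, 98.2 and 77.5 and then 30.0, 43.8 and 47.7 in the deletion line. SNHG1 (chr11:62851988-62855914), which holds 8 snoRNAs, had WT means of 33.1 and 14.8. Both fell in all 3 lines without overlap between the days, with log2 changes of -1.11 and -1.12 in WT. SNHG10, SNHG17, SNHG20, SNHG15 and SNHG7 fell too, with log2 changes from -0.93 to -0.33 in WT, and all 5 were lower in C14R and in the deletion line.

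Some noncoding hosts stood out by how little they moved. GAS5 (chr1:173863900-173868882, minus strand), the host with the most small RNAs, 11 in all and all but SNORA103 of the box C/D class, read 245, 220.1 and 236 FPKM at day 0, then 249, 234 and 202 at day 18 in WT. Its days overlapped, and the log2 change of -0.04 ± 0.08 (adjusted p = 0.68, limma) was not past the threshold. In C14R it read 236, 239 and 241 and then 192, 186 and 227, apart and lower by a log2 change of -0.25 (adjusted p = 0.01, limma), or -0.21 (adjusted p = 0.037, limma) without the library that stood apart. In the deletion line it read 252, 266 and 234 and then 214, 239 and 215, with -0.17 (adjusted p = 0.065, limma). The sign in WT turned with the scaling, to 0.18 with quantile normalization (adjusted p = 0.042, limma) and 0.17 without the small RNAs (adjusted p = 0.041, limma), so that no direction of GAS5 in WT holds across the scalings. ZBTB37 and GAS5-AS1 overlap GAS5 on the other strand, and the use of strand in counting is not given in the sources used here.

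SNHG6, ZFAS1 and EPB41L4A-AS1 also moved little in WT. SNHG6 (chromosome 8, 1 box C/D snoRNA) read 225, 226 and 227 FPKM at day 0, then 188, 204 and 207 at day 18 in WT, apart by a small margin, with a log2 change of -0.18 (adjusted p = 0.05, limma) that became 0.01 with quantile normalization and 0.03 without the small RNAs. In C14R it read 211, 226 and 241 FPKM at day 0 and its day 18 libraries 238, 180.3 and 181, where the 238 is the library that stood apart, and the change was -0.19 with it and -0.32 without it. In the deletion line SNHG6 went from 244, 239.9 and 236 to 174, 185 and 179.5 FPKM, a change of -0.42 (adjusted p = 0.00014, limma). ZFAS1 (chr20:49278178-49295738), with 3 box C/D snoRNAs, read 65.8, 62.5 and 59.5 FPKM at day 0, then 80.9, 65.0 and 69.5 at day 18 in WT, higher by 0.19 (adjusted p = 0.015, limma), but the days overlapped and without replicate 1 of day 18 the change was 0.10 (adjusted p = 0.11, limma). ZFAS1 read 65.7, 63.6 and 66.1 and then 65.5, 66.2 and 65.8 FPKM in C14R and 62.1, 70.5 and 60.5 and then 64.5, 64.9 and 63.2 in the deletion line, where the days overlapped too. EPB41L4A-AS1 had means of 13.3 and 12.98 FPKM in WT, with a log2 change of -0.03 that turned to 0.17 without the small RNAs, and passed the threshold in 0 of the 3 lines.

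SNHG11 (chr20:38446578-38450921), a host of 2 box H/ACA snoRNAs, was the noncoding host with the largest rise. It read 2.89, 3.88 and 3.39 FPKM at day 0, then 5.83, 6.91 and 4.96 at day 18 in WT, apart, with a log2 change of 0.65 ± 0.16 (adjusted p = 0.0015, limma). In C14R it went from 4.62, 3.12 and 3.15 to 3.88, 6.11 and 5.10 FPKM, overlapping, with 0.38 (adjusted p = 0.041, limma), or 0.52 (adjusted p = 0.0089, limma) without the library that stood apart. In the deletion line it read 4.53, 3.58 and 4.70 and then 4.41, 6.21 and 4.61, with 0.20 (adjusted p = 0.27, limma). SNHG9 (chr16:1964959-1965509) was too variable to place: its WT libraries read 46.5, 24.5 and 21.7 FPKM at day 0, then 38.5, 47.5 and 17.2 at day 18, and its standard error of 0.44 was the widest of the 30 hosts. SNHG9 read 34.1, 51.5 and 33.5 and then 10.3, 27.1 and 34.6 FPKM in C14R and 19.4, 43.1 and 20.2 and then 17.2, 29.7 and 33.3 in the deletion line, overlapping in both. SNHG12 and SNHG21 passed the threshold in some lines only. SNHG12 had log2 changes of -0.29 in WT (adjusted p = 0.14, limma), -1.04 in C14R (adjusted p = 4e-05, limma, and -1.14 without the library that stood apart) and -0.65 in the deletion line (adjusted p = 0.0028, limma), and SNHG21 of -0.25, -0.48 and -0.28, of which the C14R value passed (adjusted p = 0.0039, limma, and -0.56 without that library). Whether SNHG12 changed differently between C14R and WT was tested as an interaction of line and day, which gave -0.75 ± 0.25 (adjusted p = 0.71, limma), or -0.85 (adjusted p = 0.5, limma) without that library.

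A coding host, EEF1B2, had the smallest adjusted p of the hosts in WT. Other coding hosts, EEF2 and WDR43 among them, had larger ones than the noncoding SNHG16 (adjusted p = 9.1e-14, limma). EEF1B2 (chr2:206159585-206162928) read 521, 512 and 505 FPKM at day 0, then 159, 153 and 162 at day 18 in WT, 508 in each of the 3 libraries and then 172, 161 and 159 in C14R, and 508, 534 and 516 and then 148, 158 and 147 in the deletion line. Day 18 held 30.8, 32.3 and 29.1% of the day 0 mean. The WT change was -1.69 ± 0.04 (adjusted p = 3.8e-16, limma), larger than that of EEF2, which went from 678, 689 and 671 FPKM to 479, 449.9 and 421, a change of -0.60 ± 0.04 (adjusted p = 1.5e-09, limma). WDR43 (chr2:28894643-28948222), a factor of small-subunit ribosome assembly, fell from 48.7, 49.2 and 48.9 FPKM to 24.4, 23.9 and 22.9, a change of -1.01 ± 0.04 (adjusted p = 6.4e-13, limma). EEF2 at day 0 read 668, 685 and 683 FPKM in C14R and 696, 678 and 707 in the deletion line, and its day 18 libraries are given with the comparison of constructs. WDR43 read 48.5, 49.4 and 50.4 and then 23.6, 20.9 and 21.8 in C14R and 48.8, 49.4 and 48.9 and then 22.3, 21.3 and 20.9 in the deletion line. In all 3 of these genes the days were apart in every line, and in each line this held for most tested genes. Without the library that stood apart the C14R changes were -1.66 for EEF1B2, -0.39 for EEF2 and -1.17 for WDR43, where they were -1.63, -0.42 and -1.13 with it.

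The paralogs EIF4A1 and EIF4A2, which encode closely related RNA helicases of the complex that loads mRNA onto the ribosome and which both host snoRNAs, moved in opposite directions. EIF4A1 (chr17:7572706-7579005) read 446, 461 and 459.9 FPKM at day 0, then 239, 228 and 224 at day 18 in WT. EIF4A2 (chr3:186783205-186789900) read 126, 122 and 124 and then 221, 214 and 221. In C14R EIF4A1 read 450.2, 441 and 443 and then 221, 242 and 241 FPKM and EIF4A2 120.4, 121 and 128 and then 248, 217 and 226. Deletion libraries of EIF4A1 read 463, 449.7 and 452 and then 239.95, 239 and 232 and EIF4A2 118, 126 and 120.4 and then 231, 216 and 222. At day 18 the 2 genes stood close, with WT means of 230.4 ± 7.47 for EIF4A1 and 219 ± 3.77 for EIF4A2, where EIF4A1 had been the higher at day 0 by 456 to 124. The log2 changes in WT, C14R and the deletion line were -0.98, -0.92 and -0.94 for EIF4A1 and 0.81, 0.89 and 0.87 for EIF4A2, each with a standard error of 0.04 or 0.05 (largest adjusted p = 3.9e-11 for EIF4A2 and 7.4e-13 for EIF4A1, limma). Without the library that stood apart the C14R changes were -0.88 and 0.84. EIF4A2 was higher in all 9 day 18 libraries than in any day 0 library. Reads that match both paralogs could have been divided by the quantification, and EIF4A1 shares its interval with the readthrough gene SENP3-EIF4A1.

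The remaining coding hosts changed by less than WDR43 in WT. IPO7, an import receptor for ribosomal proteins and histones, read 79.0, 80.9 and 80.4 FPKM and then 47.7, 47.0 and 49.3 in WT, a log2 change of -0.73. NCL, the nucleolar protein nucleolin, read 312, 305 and 299.8 and then 203, 213 and 222, a change of -0.52. TAF1D, a subunit of the RNA polymerase I factor SL1 and the host of 8 snoRNAs, read 46.4, 47.5 and 47.6 and then 34.1, 34.98 and 37.4, a change of -0.40. Each was also lower in C14R and the deletion line, and in C14R the library that stood apart was the highest of the day 18 libraries for all 3, at 59.2, 253 and 43.5 FPKM. IPO7 read 82.9, 78.4 and 84.3 and then 59.2, 46.7 and 50.8 in C14R and 78.1, 77.9 and 78.1 and then 48.3, 48.4 and 48.4 in the deletion line, and NCL 303, 303 and 314 and then 253, 218 and 213 and, in the deletion line, 295, 295 and 291 and then 198, 212 and 216. TAF1D read 43.4, 43.1 and 47.8 and then 43.5, 33.1 and 36.3 in C14R, where its days overlapped through that library, and 44.8, 46.6 and 46.6 and then 33.8, 33.9 and 37.7 in the deletion line. The C14R changes were -0.65, -0.43 and -0.25 with that library and -0.74, -0.51 and -0.36 without it, for IPO7, NCL and TAF1D. PTCD3, a protein of the mitochondrial ribosome, read 12.9, 13.8 and 13.2 FPKM and then 11.1, 11.8 and 11.8 in WT, a change of -0.18 that passed the threshold (adjusted p = 0.0014, limma) but became 0.01 without the small RNAs. It read 13.4, 13.6 and 13.9 and then 11.8, 11.1 and 11.4 in C14R and 12.8, 12.8 and 13.2 and then 10.9, 11.1 and 11.4 in the deletion line, with changes of -0.24 (-0.26 without the library that stood apart) and -0.20. EIF4G2 read 274, 274 and 271 FPKM and then 283, 287 and 297 in WT, apart by a small margin, with 0.08 (adjusted p = 0.039, limma) in WT and 0.04 (adjusted p = 0.31, limma) in the deletion line, and the WT value missed the threshold when any of 5 of the 6 libraries was left out. In C14R EIF4G2 read 274, 269.6 and 272 and then 299, 287 and 278 FPKM, apart, and in the deletion line 284, 279 and 272 and then 282, 282 and 293, overlapping.

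Set against each other, both classes fell in each line. Averaged over members on the log2 scale, the noncoding hosts changed by -0.63 and the coding hosts by -0.52 in WT, by -0.81 and -0.47 in C14R (-0.75 and -0.51 without the library that stood apart), and by -0.76 and -0.52 in the deletion line. The mean log2 value of the 20 noncoding hosts minus that of the 10 coding hosts was -2.13 ± 0.04 (SD, n = 3) at day 0 and -2.24 ± 0.10 at day 18 in WT, a change of -0.11. The change was -0.34 in C14R, from -2.11 ± 0.01 to -2.45 ± 0.17, and -0.25 in the deletion line, from -2.10 ± 0.04 to -2.35 ± 0.07. Without the library that stood apart the C14R change was -0.25. In WT the day 18 libraries spanned -2.33 to -2.14, which overlapped the day 0 range of -2.16 to -2.09, and in C14R and the deletion line the days did not overlap. The size rests on how members are averaged: with the median over members in place of the mean the changes were -0.76, -0.96 and -0.80, and with no filter on low values -0.00207, -0.21 and -0.11. No test was made of this difference, since the members of a class are not replicates.

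No host gene passed the threshold between constructs at either day. Over 30 hosts, C14R against WT and the deletion line against WT gave 0 genes past the threshold at day 0 and 0 at day 18, C14R against the deletion line gave 0 at both days, and both interactions of line and day gave 0 (limma). The share of all tested genes past the threshold in these comparisons was 0% for C14R and 0.029% for the deletion line against WT at day 0, 0.0363% and 0.0725% at day 18, 0.058% and 0.029% between the variants at day 0 and day 18, and 0% and 0.0145% for the interactions. At an unadjusted p under 0.05 the hosts counted 0 and 1 of 30 against WT at day 0, 8 and 5 at day 18, 1 and 4 between the variants, and 2 and 4 in the interactions, where all genes gave 2.81 and 6.22%, 11.1 and 11.4%, 9.84 and 11.2%, and 5.73 and 7.36%. Without the C14R library that stood apart the C14R comparisons also gave 0, with 7, 2 and 5 of 30 hosts at an unadjusted p under 0.05 against WT at day 18, against the deletion line at day 18 and in the interaction, where all genes gave 12.4, 5.06 and 7.86%. The other alternatives run on these comparisons also gave 0 hosts past the threshold.

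EEF2 came closest. Its day 18 libraries read 479, 449.9 and 421 FPKM in WT, 487, 512 and 521 in C14R, and 519.8, 502 and 499 in the deletion line, so that both variants lay above all WT libraries. The difference from WT was 0.17 ± 0.04 in C14R (adjusted p = 0.14, limma, and 0.20 without the library that stood apart) and 0.17 ± 0.04 in the deletion line (adjusted p = 0.18, limma), and leaving out 1 library at a time gave 0.13 to 0.22 in each. At day 0 the EEF2 means were 679.5, 679 and 694 FPKM in WT, C14R and the deletion line. Both variants were set against the same 3 WT libraries. SNHG12 read 7.53, 4.24 and 8.08 FPKM at day 18 in WT, 4.67, 3.62 and 3.60 in C14R, and 3.60, 5.62 and 5.29 in the deletion line, with a difference of -0.58 (adjusted p = 0.2, limma) in C14R, or -0.68 without that library, and -0.36 in the deletion line. The groups of SNHG12 overlapped in both comparisons because of WT replicate 2. WDR43 was lower by 0.14 on the log2 scale in the deletion line (adjusted p = 0.25, limma), and there its libraries of 22.3, 21.3 and 20.9 FPKM lay below all WT libraries.

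At day 18 the signs of the noncoding hosts leaned one way without a single one past the threshold. In C14R 18 of the 20 noncoding hosts had a negative difference from WT, with a median of -0.14, and in the deletion line 17 of 20, with a median of -0.12, where 50.8 and 48.1% of all tested genes were negative. Among the coding hosts 3 of 10 and 6 of 10 were negative, with medians of 0.06 and -0.02. Both counts use the same WT libraries, and the WT library labelled replicate 1 of day 18 was above all other day 18 libraries for 11 of the 30 hosts. Without it 15 of 20 noncoding hosts were negative in each variant, with medians of -0.12 and -0.07, and without the C14R library that stood apart 15 of 20 in C14R, with a median of -0.12. Groups that did not overlap were found for 3 of the 30 hosts in C14R against WT and for 5 in the deletion line against WT at day 18, against 11.1 and 18.9% of all genes. At day 0 the noncoding medians were -0.01 and 0.01.

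**Figure D3:**
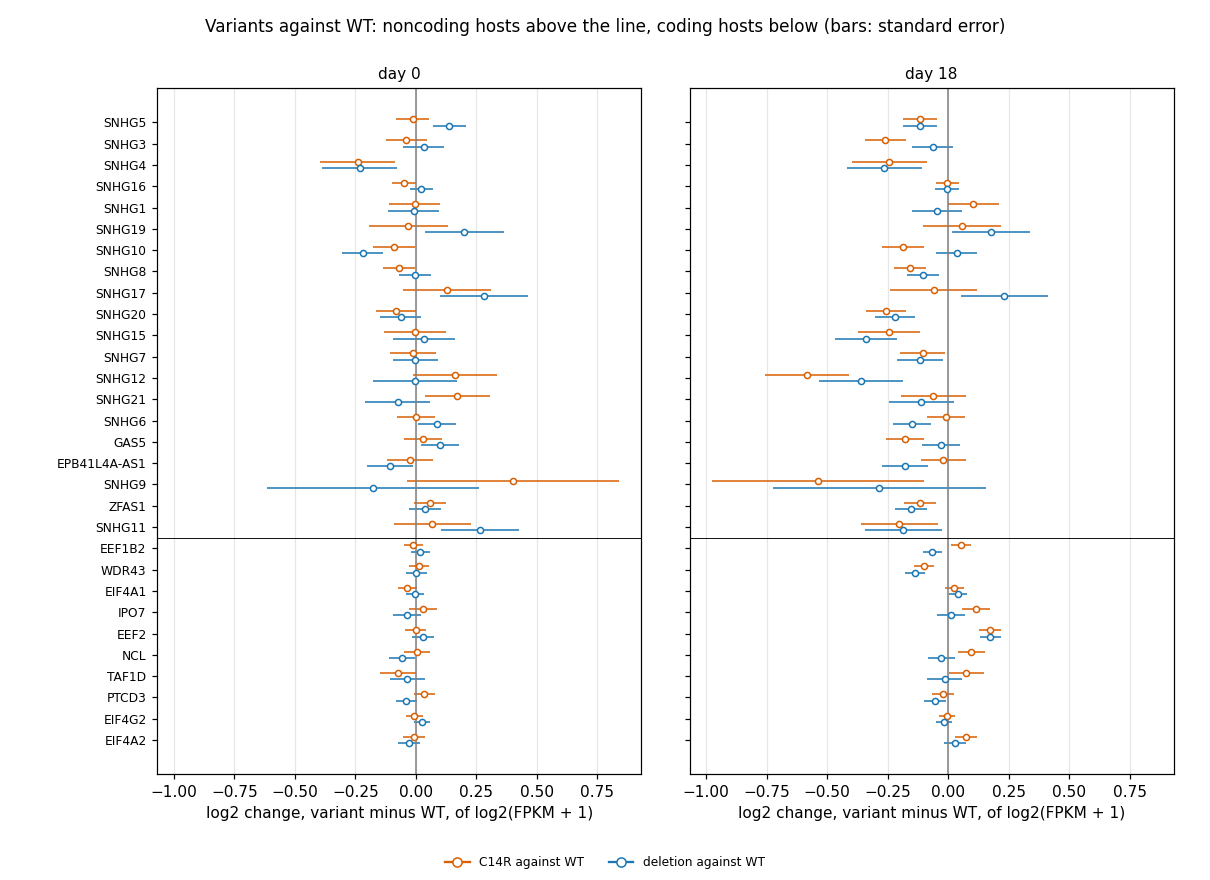
Difference of each variant line from WT on the log2(FPKM + 1) scale with its standard error, at day 0 on the left and day 18 on the right, noncoding hosts above the horizontal line and coding hosts below it. No point passed an adjusted p of 0.05. At day 18 most noncoding hosts lie left of 0, and EEF2 lies right of it at 0.17 in both lines.

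The small RNAs inside the hosts could be read for few of them. RefSeq places 83 snoRNAs and scaRNAs inside 33 of the 34 hosts, 55 in noncoding hosts (31 box C/D, 20 box H/ACA and 4 scaRNAs) and 28 in coding hosts (13 box C/D and 15 box H/ACA). Of the 83, 77 have a row in the table, and only 8 of these were above 0 in any library. The shortest with a value was 177 bases long and the longest listed at 0 in all libraries was 148 bases long. None of the 44 box C/D snoRNAs of these hosts has a value, so nothing can be said here of the box C/D snoRNAs that these hosts carry. Grouped by what they host, the tested genes with box C/D snoRNAs only (10, of which 6 noncoding) had a median log2 change of -0.81 in WT, with 7 lower and 2 higher. Those with box H/ACA snoRNAs only (10, of which 9 noncoding) had -0.61, with 7 lower and 1 higher. The rest, with both kinds or a scaRNA (10, of which 5 noncoding), had -0.46, with 6 lower and 1 higher. Of all tested genes 34% were lower and 38.2% higher in WT. At day 18 the difference from WT had medians of -0.01 for the box C/D hosts and -0.18 for the box H/ACA hosts in C14R, and -0.05 and -0.15 in the deletion line, with 0 hosts past the threshold. Without the library that stood apart the C14R medians were -0.04 and -0.06.

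The small RNAs that carried values were long box H/ACA snoRNAs and scaRNAs. The sequences of 3 that fell together with their hosts, 1 in a noncoding host that fell strongly, 1 in a coding host and 1 scaRNA, follow 5′ to 3′, as in GENCODE 29 on GRCh38, with the ACA box, the mark of the H/ACA class, in capitals. An ACA that ends 3 bases before the end, as in these sequences, was found in 75.2% of the 149 SNORA transcripts of that annotation.
SNORA73A (chr1:28507366-28507571, plus strand): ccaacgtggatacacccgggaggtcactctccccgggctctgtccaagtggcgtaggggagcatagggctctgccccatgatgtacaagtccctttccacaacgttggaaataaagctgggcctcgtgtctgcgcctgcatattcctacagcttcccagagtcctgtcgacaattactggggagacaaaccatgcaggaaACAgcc
SNORA23 (chr11:9428773-9428954, plus strand): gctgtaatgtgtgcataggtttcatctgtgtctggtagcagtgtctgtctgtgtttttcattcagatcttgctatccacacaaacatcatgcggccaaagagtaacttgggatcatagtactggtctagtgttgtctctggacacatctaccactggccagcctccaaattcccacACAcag
SCARNA16 (chr17:77089307-77089493, plus strand): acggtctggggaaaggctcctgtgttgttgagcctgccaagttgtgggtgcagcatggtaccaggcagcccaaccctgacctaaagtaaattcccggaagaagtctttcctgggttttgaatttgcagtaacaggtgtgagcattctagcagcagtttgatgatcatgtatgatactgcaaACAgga

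SNORA73A, inside SNHG3, was the most abundant of them. It read 2842, 2750.2 and 2836 FPKM at day 0, then 539, 399 and 318 at day 18 in WT, 2145, 2880.2 and 3035 and then 212, 380.1 and 463 in C14R, and 3244, 2136 and 3029.8 and then 410.1, 369 and 420.2 in the deletion line. The days were apart in each line. SNORA73A changed by -2.78 ± 0.23 on the log2 scale in WT (adjusted p = 9.6e-09, limma), where its host SNHG3 changed by -1.78. SNORA73B, the other snoRNA of SNHG3, was above 0 in only 6 of 18 libraries and was not past the threshold in any line.

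SNORA74A, inside SNHG4, read 366, 322 and 329 FPKM at day 0, then 127, 147 and 145 at day 18 in WT, a log2 change of -1.28 ± 0.27 (adjusted p = 0.0004, limma) beside -1.72 for SNHG4. SNORA23, inside IPO7, read 346, 464 and 281 and then 108, 83.9 and 218, a change of -1.49 ± 0.33 (adjusted p = 0.00063, limma) beside -0.73 for IPO7. SCARNA13, inside SNHG10, had means of 939 and 676 FPKM and a change of -0.47 (adjusted p = 0.0025, limma) beside -0.93 for SNHG10. SCARNA16, inside SNHG20, read 201, 154 and 224 FPKM at day 0, then 14.9, 0 and 16.1 at day 18 in WT (adjusted p = 0.0047, limma), and was listed at 0 in 1 library of each of the other day 18 groups as well. All 5 were lower at day 18 in all 3 lines, and so were their 5 hosts, where 29.7% of all tested genes were. These 5 pairs were picked from the 8 small RNAs with values because both members fell. Their shared direction therefore follows from the choice. In C14R the changes with and without the library that stood apart were -2.99 and -2.66 for SNORA73A, -1.19 and -0.91 for SNORA74A, -2.01 and -1.72 for SNORA23, and -0.73 and -0.56 for SCARNA13. For SCARNA16 they were -3.85 (adjusted p = 0.02, limma) and -1.98 (adjusted p = 0.15, limma), so its C14R call rested on that library. These pairs are not independent measures where reads of the unspliced host were given to the small RNA, which the deposited values cannot show. SNORA73A and SCARNA16 also lie inside an annotated exon of their hosts, SNHG3 and SNHG20. Reads of these pairs could be shared in either direction without any unspliced host. SNORA74A, SNORA23 and SCARNA13 do not lie inside an annotated exon.

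SCARNA17 was not lower at day 18 in any line. It lies in SNHG22, which was at or near 0 in every library. SCARNA17 begins at the annotated first base of SNHG22, chr18:49814023, and lies inside an annotated exon of it. SCARNA17 read 152, 170.3 and 147 FPKM at day 0, then 196, 179 and 154 at day 18 in WT, a log2 change of 0.17 (adjusted p = 0.06, limma). C14R libraries of SCARNA17 read 154, 165 and 156 and then 166, 171 and 159, a change of 0.06 (adjusted p = 0.51, limma) and 0.05 without the library that stood apart. In the deletion line it went from 155, 156 and 151 to 175, 206 and 202, apart and higher by 0.33 (adjusted p = 0.00089, limma). SNORA81, in EIF4A2, was above 0 in 3 of 18 libraries, so the rise of EIF4A2 could not be set beside a snoRNA of its own.

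**Figure D4:**
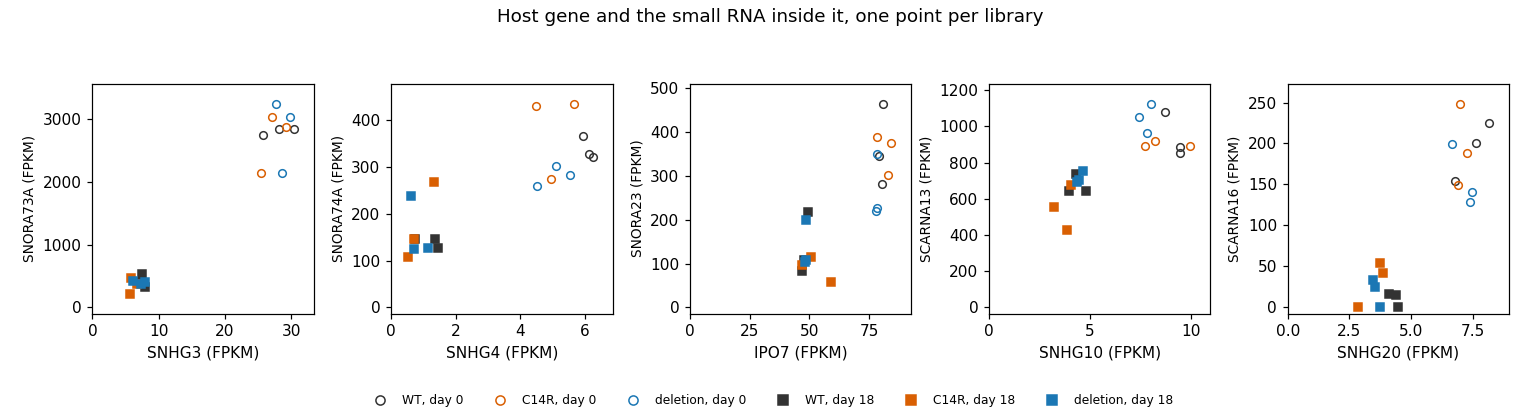
FPKM of the host gene (horizontal axis) and of the small RNA inside it (vertical axis) in each library, for the 5 pairs in which both were lower at day 18, with open circles for day 0 and filled squares for day 18. In the SNHG3 and SNORA73A pair the highest day 18 values are 7.99 and 539 FPKM, below every day 0 library on both axes.

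The bases around the transcription start were read for the hosts with a RefSeq promoter entry, which 29 of the 34 had (19 noncoding and 10 coding). SNHG6, SNHG9, SNHG15, SNHG24 and SNHG25 had none. The search was for a run of at least 5 bases, C first and then C or T only, that begins within 5 bases of the annotated start, read on the strand of the gene alone, and a gene with several entries was counted if any of them held it. It was found in 10 of the 19 noncoding hosts (52.6%) and 6 of the 10 coding hosts (60%), and in 29.7% of the 10152 tested genes with an entry and 25.2% of all 27305 genes with one. A match describes the letters and not the use of the motif. RefSeq and GENCODE do not always start a gene at the same base: an entry lay within 50 bases of the start of the GENCODE interval in 17 of the 29 hosts, and the GAS5 and SNHG3 entries lie 163 and 37 bases upstream of it, so their lack of a run is not read further. Windows of 30 bases before and 15 after the start are shown for some of the hosts that held the run (RefSeq, GRCh38.p14). Of those shown, SNHG5, SNHG4 and EEF1B2 fell, EIF4A2 rose, and ZFAS1 rose in WT. The run is in capitals as far as the window reaches. Hosts without the run, such as SNHG1, SNHG10 and WDR43, which fell, and SNHG11, which rose in WT, are not shown. The EIF4A2 and ZFAS1 starts shown lie 372 and 464 bases inside the GENCODE interval. EEF1B2 has another entry with no run, 24 bases inside its interval, and the entry shown lies further inside.
SNHG5 (chr6:85678719-85678763, minus strand): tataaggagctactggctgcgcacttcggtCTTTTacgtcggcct
SNHG4 (chr5:139274071-139274115, plus strand): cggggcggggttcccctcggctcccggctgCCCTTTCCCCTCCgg
EEF1B2 (chr2:206159865-206159909, plus strand): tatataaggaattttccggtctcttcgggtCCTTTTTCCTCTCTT
EIF4A2 (chr3:186783547-186783591, plus strand): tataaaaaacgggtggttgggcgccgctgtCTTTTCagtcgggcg
ZFAS1 (chr20:49278612-49278656, plus strand): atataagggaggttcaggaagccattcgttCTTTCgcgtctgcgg

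Hosts with the run were found among those that fell, rose and stayed under the threshold. Among hosts with an entry it stood in 11 of the 19 that were lower in WT, in 3 of the 4 that were higher and in 1 of the 4 that did not pass the threshold. EEF1B2, with a run of 16 bases in 1 of its 2 entries, was lower, and EIF4A2 and ZFAS1, with runs of 6 and 5 bases, were higher in WT.

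Genes that work with the hosts moved by their own amounts, and their counts are to be read against the 38.2% of all tested genes that were higher and the 34% that were lower in WT. Of 37 tested coding snoRNA hosts beyond the 10, mostly ribosomal protein genes, 32 were lower and 0 higher in WT, with a median log2 change of -0.75, and 32 and 34 were lower in C14R and the deletion line, against 35% and 34.4% of all tested genes. RPLP2 at -1.55 and RPL3 at -1.37 fell most. Among these, the 34 with a small RNA in their RefSeq interval counted 30 lower, with a median of -0.76. Of the 8 core proteins of snoRNA particles 7 were lower in WT, with a median of -0.86, led by FBL, the methyltransferase of box C/D particles, at -1.88, and GAR1, a box H/ACA protein, at -1.49. Of 14 assembly factors 9 were lower and 3 higher, with a median of -0.24. ZNHIT3, the delivered gene, at 1.098 and RPAP3 at 0.29 rose most, and COIL at -0.96 and RUVBL2 at -0.92 fell most. Of 14 factors of nonsense-mediated decay, the pathway that degrades many noncoding host transcripts, 6 were lower and 3 higher in WT, with a median of -0.08. RBM8A at 0.55 and SMG6 at 0.44 rose most, and MAGOH at -0.68 and UPF1 at -0.63 fell most. The 13 proliferation genes were all lower, with a median of -1.70, led by TYMS at -2.41 and RRM2 at -2.20.

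**Figure D5:**
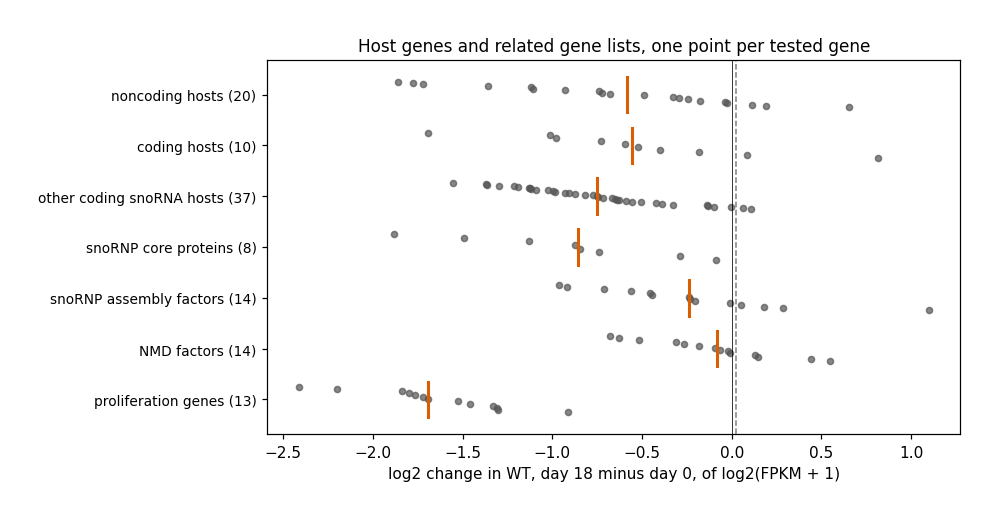
Log2 change from day 0 to day 18 in WT for the noncoding and coding hosts and 5 other gene lists, 1 point per tested gene, with an orange bar at each list's median and a dashed line at the median of all tested genes, 0.03. The medians run from -1.70 for proliferation genes to -0.08 for factors of nonsense-mediated decay, with the noncoding hosts at -0.58 and the coding hosts at -0.56.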

How the data were processed

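RNA-seq of 18 SH-SY5Y libraries, 3 for each of 6 combinations of construct and day taken from the sample titles, was used as deposited. Per the labels' protocols, RNA came from a TRIzol extraction with a DNase I step, and the libraries from Ribo-Zero depletion and a NEBNext Ultra kit. The authors deposited 1 FPKM value per gene and library. Per the submitters' processing notes the tools were TopHat2, STAR and Cufflinks 2.2.1 and the build hg38, with no role or order, and the annotation and use of strand are not given in the sources used here. The unit was read from the deposited table and its values: 0 value columns lacked a sample, 0 pairs of columns were identical, and the highest correlation between libraries was 0.994.

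Values were tested as log2(FPKM + 1), a pseudocount of 1 that understates changes of low genes, over the 13785 genes with a mean of at least 1 FPKM, with limma 3.58.1 (R 4.3.3): group means over all 18 libraries, a mean-variance trend and Benjamini-Hochberg adjustment within each comparison, with a threshold of 0.05. On simulated data with 200 changed genes the procedure was tested and its calls were checked. FPKM without counts gives no depth per gene, so no counting intervals are given. Host coordinates and biotypes come from GENCODE 29 on GRCh38, which matched 33 of the 34 host symbols, and small RNA intervals and promoters from RefSeq on GRCh38.p14.

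Every host gene could be named. Values in every library are given for ZNHIT3, the 8 noncoding hosts of highest mean, the coding hosts and the 3 largest rises and falls in WT. For other lists the 2 largest rises and falls past the threshold in WT are named. Genes named beyond this rule were chosen after their values were seen. The summed sympathetic markers and 1 small RNA sequence are not reported here. The members and lists were chosen with earlier results of these data known. Alternatives tried were other pseudocounts, filters, scalings, fits and left-out libraries. Fits without C14R replicate 1 of day 18 in comparisons that do not use it, and gene by gene, were added after seeing the data.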

Additional observations from a re-analysis of the deposited data

How the results depend on the processing

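Of the results that answer a comparison, 320 alternatives left the value in place and 44 moved it, most of them counts of 1 or 2 hosts past the threshold. In WT 20 of the 24 hosts past the threshold kept their call under every alternative in which they were tested. Of the 20, SNHG4 and SNHG11 were not tested with a mean of at least 5 FPKM. Of 382 alternatives 13 lost a call (SNHG7, ZFAS1 and EIF4G2) and 1 reversed a sign (PTCD3). Noncoding hosts higher in WT went from 2 to 1 with a mean of at least 5 FPKM and with median-of-ratios scaling, and to 1 or 2 with a library left out. Noncoding hosts higher in C14R went from 1 to 0 with no filter, a mean of at least 5 FPKM, median-of-ratios scaling or only the libraries compared, to 2 without small RNAs, and to 0 or 1 with a library left out. In the deletion line they went from 0 to 1 with no filter and 2 without small RNAs. Coding hosts higher went from 2 to 1 in WT and in C14R with median-of-ratios scaling, the replicate block, no variance trend or only the libraries compared, and to 1 or 2 with a library left out, and from 1 to 2 in the deletion line with quantile normalization or without small RNAs. With a mean of at least 5 FPKM, SNHG11, higher in WT and C14R in the main fit, was left out and had no call. The causes of the other shifts were not tested.

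Signs turned in WT for EPB41L4A-AS1 (0.167 without small RNAs, -0.0988 to 0.10 with a library left out), GAS5 (0.178 with quantile normalization, 0.17 without small RNAs, -0.103 to 0.0459 with a library left out), SNHG6 (0.0102 with quantile normalization, 0.0287 without small RNAs), PTCD3 (0.0111 without small RNAs) and SNHG9 (-0.173 to 0.535 with a library left out). The change of noncoding minus coding hosts was -0.00207 in WT, -0.21 in C14R and -0.11 in the deletion line with no filter, -0.76, -0.96 and -0.80 with the median over members, -0.23 in WT and -0.37 in the deletion line with quantile normalization, and -0.32 in the deletion line with a pseudocount of 0.1. Without small RNAs 66.4% in place of 52.0% of the genes past the threshold were higher in C14R, and 69.5% in place of 52.8% in the deletion line.

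Replicate numbers did not pair the libraries: 6 of 45 correlations between same-numbered libraries were over 0.1 (range -0.363 to 0.168). The fit with the replicate number as a block changed no other count by more than 1.5 times. Depth per gene is unknown, and hosts under 1 FPKM were not tested.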
